A study of Mus musculus with 6 samples.

Results

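The 10 integrin genes were followed through an open-chromatin survey of B-cells that had stopped dividing and B-cells that had not. They encode 6 alpha chains (Itga4, Itga5, Itga6, Itgal, Itgam, Itgav) and 4 beta chains (Itgb1, Itgb2, Itgb3, Itgb7). A peak was counted for a gene when it overlapped the gene body, or when it overlapped no protein-coding gene and that gene was the nearest one within 100 kb. This gave 125 integrin peaks of 97124 in all. Bone marrow B-cells of PEtg mice, a name the labels do not expand, were sorted by H2B-GFP, a fluorescent histone that dividing cells dilute. Cells with high H2B-GFP carry the label quiescent and those with low H2B-GFP the label proliferating, with 3 samples of each, and the series title places the contrast in a study of pre-leukaemic stem cells. The labels give neither the age of the mice nor the promoter that drives H2B-GFP, and nothing in them ties each sample to a mouse of its own, so the spread behind the p-values may be technical. ATAC-seq reads out where a transposase can reach DNA, and a stronger peak stands for a more accessible region.

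Integrins are adhesion receptors made of 1 alpha and 1 beta chain, and the pair sets the ligand. In bone marrow the chain encoded by Itga4 binds VCAM1 on stromal cells and fibronectin when joined to the Itgb1 chain, and a mucosal addressin when joined to the Itgb7 chain. The Itga5 chain binds fibronectin, the Itga6 chain laminins, and the Itgav chain vitronectin and other ligands, often with the Itgb3 chain. The Itgb2 chain is shared by the leukocyte integrins, with Itgal in LFA-1, which binds ICAMs, and with Itgam in Mac-1, which is typical of myeloid cells.

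Promoter windows from RefSeq (build GRCm38.p6, 250 bases before to 50 after the start) were found for 6 of the 10 genes: Itga4, Itga5, Itgam, Itgav, Itgb1 and Itgb7. A selection of 4 is shown because the peaks over them behaved differently: those of Itga4 and Itgav fell in quiescent cells under the deposited scaling, and those of Itgam and Itgb1 did not pass the test in either direction. Capitals mark matches, on either strand, to GAGGAA (the core of PU.1 sites), GGAAG (the ETS core), GGGCGG (the GC box of Sp and KLF factors) and TGTGGT (Runx); GAGGAA and GGAAG can overlap.
Itga4, chr2:79255176-79255475, plus strand: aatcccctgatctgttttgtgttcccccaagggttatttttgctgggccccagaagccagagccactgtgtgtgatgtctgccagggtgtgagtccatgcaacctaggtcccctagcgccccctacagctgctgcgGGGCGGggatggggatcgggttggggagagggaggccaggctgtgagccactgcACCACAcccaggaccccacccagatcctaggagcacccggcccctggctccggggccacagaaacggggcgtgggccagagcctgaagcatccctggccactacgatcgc
Itgav, chr2:83724147-83724446, plus strand: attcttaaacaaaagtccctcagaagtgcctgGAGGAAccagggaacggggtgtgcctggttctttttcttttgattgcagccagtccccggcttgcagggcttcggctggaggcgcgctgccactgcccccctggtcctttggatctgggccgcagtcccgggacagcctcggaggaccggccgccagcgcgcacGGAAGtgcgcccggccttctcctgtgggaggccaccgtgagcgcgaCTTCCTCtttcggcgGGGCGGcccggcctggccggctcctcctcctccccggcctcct
Itgam, chr7:128062390-128062689, plus strand: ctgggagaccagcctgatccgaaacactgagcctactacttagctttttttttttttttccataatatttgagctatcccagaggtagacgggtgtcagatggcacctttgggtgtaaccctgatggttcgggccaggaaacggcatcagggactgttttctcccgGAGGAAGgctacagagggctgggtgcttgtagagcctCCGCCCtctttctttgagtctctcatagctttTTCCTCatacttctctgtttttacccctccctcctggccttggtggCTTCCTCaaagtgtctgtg
Itgb1, chr8:128685404-128685703, plus strand: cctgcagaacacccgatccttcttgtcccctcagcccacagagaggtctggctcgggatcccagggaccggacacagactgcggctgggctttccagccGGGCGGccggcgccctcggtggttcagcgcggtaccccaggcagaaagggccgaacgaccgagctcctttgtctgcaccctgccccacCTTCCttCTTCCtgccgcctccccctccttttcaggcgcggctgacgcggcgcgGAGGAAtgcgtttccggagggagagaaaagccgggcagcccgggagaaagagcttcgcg
The Itga4 window held 1 GC box and 1 Runx match, and no PU.1 or ETS match. The Itgam window held 3 PU.1 matches, the most of the 6 windows, while the Itgav window held 2 and those of Itga5, Itgb1 and Itgb7 held 1 each. Of 32851 promoter windows in the table, 28.3% held GAGGAA, 71.4% GGAAG, 35.7% GGGCGG and 16.8% TGTGGT. None of the 6 integrin windows held CAGGTG (an E-box), TGACTCA (AP-1) or TATAAA (the TATA box), which 20.2%, 5.2% and 13.6% of all windows hold. The Itgav and Itgb1 windows were the richest in G and C (67.3% each, with 24 and 27 CG pairs), against a median of 52.7% and 7 CG pairs over all windows. A match is a description of letters and not a measured binding site.

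Quiescent samples 1, 2 and 3 held an estimated 28216280, 14017480 and 18581338 reads in peaks, against 8052705, 31665572 and 48628821 in proliferating samples 1, 2 and 3, although the deposited signal had been brought to nearly equal totals (20904407 to 21518630). All 10 B-lineage marker genes checked, among them Cd79a, had a peak at a gene end above the median end peak of all genes (123.8). Of 12 myeloid marker genes, Mpo and Elane had no peak, 5 had an end peak and 2 had one above that median. Of 10 T and NK marker genes, 5 had an end peak and 3 had one above it (Klrb1c, Cd3d and Cd247, at 946.7, 869.9 and 847.6). A strong end peak was therefore not particular to the B-lineage genes. The summed signal at the myeloid genes was 7431 to 7792 in quiescent samples and 6189 to 6527 in proliferating samples, so the groups did not overlap. The summed signal of the other marker lists overlapped between groups: 64300 to 68130 in quiescent against 62570 to 70110 in proliferating samples at the B-lineage genes, 13980 to 15910 against 14380 to 15670 at the T and NK genes, and 4353 to 5087 against 3921 to 4568 at the erythroid and megakaryocyte genes. In sorted but mixed samples, more cells of a type and more accessibility per cell cannot be told apart.

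In all, 8 integrin peaks passed the limma test (adjusted p threshold 0.05), 5 higher and 3 lower in quiescent cells, in 6 of the 10 genes: Itga4, Itga6, Itgal, Itgam, Itgav and Itgb3. Of the 125 peaks, 116 were strong enough to be tested; the 9 left out lay at Itga5 (3), Itgb1 (2), Itgb3 (2), Itga6 (1) and Itgb7 (1). The 8 calls are 6.9% of 116, beside 6.72% of the 87411 peaks tested in all. The higher calls are 4.31% of the integrin peaks, beside 4.01% of all, and the lower calls 2.59%, beside 2.72%. Integrin peaks were thus called about as often as peaks in general. Its median log2 fold change was 0.16, with 71 of 116 peaks above 0, beside a median of -0.01 and 49.3% above 0 for all peaks. The signal of the 2 groups did not overlap at 30 integrin peaks (25.9%, beside 30.4% of all peaks), 20 of them higher (15.4% of all peaks) and 10 lower (14.9% of all peaks) in quiescent samples. The 3 peaks that fell were 2 within 1 kb of a gene end and 1 between genes, 1114 bp outside Itga6. The 5 that rose were 1 within a gene body and 4 between genes, the closest 2172 bp outside Itgal. The 2 falls at a gene end are the start peaks of Itga4 and Itgav, whose calls depend on the scaling. Of the 14 tested peaks within 1 kb of a gene end, 2 were called, both lower; over all genes 2.79% of such peaks were called. Of 55 peaks elsewhere in gene bodies 1 was called (7.31% over all genes), and 5 of 47 between genes (7.91% over all genes).

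**Figure D1:**
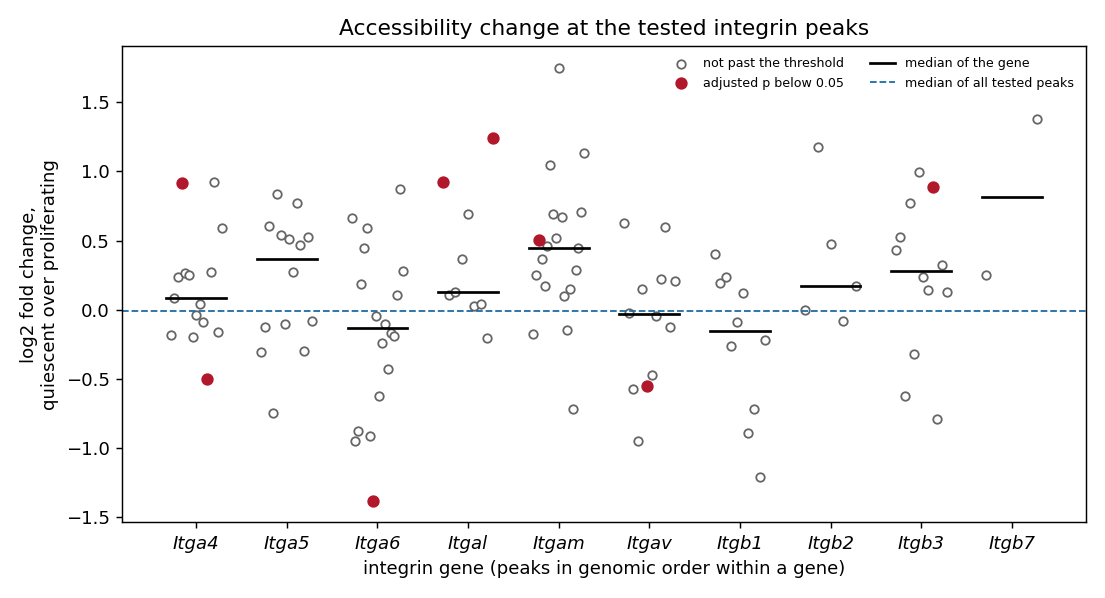
Log2 fold change (quiescent over proliferating, vertical axis) of each tested integrin peak by gene (horizontal axis); filled red points are the 8 called peaks, open points the others, black lines the median of each gene and the dashed line the median of all tested peaks. Called peaks range from -1.38 at Itga6 to 1.24 at Itgal.

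Same-numbered samples of the 2 groups deviated together, most clearly for number 1. With the number as a block, which the main test did not use, 22 integrin peaks were called (19.0%, beside 18.3% of all peaks). Of these, 15 were higher and 7 lower (10.2% and 8.14% of all peaks). All 8 calls were among them. The deposited scaling varies with peak strength, so the reads recovered from it were also tested with limma-voom, an alternative partly chosen after seeing the data. Scaled by the median of ratios, 12 integrin peaks were higher and 1 lower (9.92% and 3.96% of all peaks; 13.9% in either direction). Scaled by total reads, 7 were higher and 6 lower (4.98% and 9.93% of all peaks; 14.9% in either direction), with the median of all peaks itself shifted to -0.26 and that of integrin peaks to -0.10. Of the 8 calls, 6 passed under the deposited scaling and both read scalings; the other two are the start peaks of Itga4 and Itgav, described with their genes.

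Leaving out 1 sample kept the direction of all 8 peaks but not their calls. With quiescent sample 1, 2 or 3 dropped, 6, 0 and 0 of the 8 were still called; with proliferating sample 1, 2 or 3 dropped, 7, 0 and 1 were. Over all peaks the calls numbered 6505, 161 and 0 when a quiescent sample was dropped and 8241, 790 and 1160 when a proliferating sample was, beside 5876 with all 6 samples. Without quiescent sample 3, limma left 0 of 87411 peaks called at the adjusted threshold, while 16512 had an unadjusted p under 0.05.

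Itga4, the alpha chain of the VCAM1 and fibronectin receptor on B-cell precursors, was the only one of the 10 with calls in both directions. A peak 26410 bp upstream of the start (chr2:79227363-79229016, between genes) had a signal of 1049, 842.6 and 846.4 in quiescent samples, against 502.2, 467.5 and 471.2 in proliferating samples. The quiescent samples were all higher, with no overlap (log2 fold change 0.92 ± 0.14 SE, limma adjusted p = 0.0115). The peak over the start (chr2:79254358-79258185), whose sequence window is shown above, had 2873, 2660 and 2513 in quiescent samples, against 4136, 3621 and 3632 in proliferating samples. It was lower in every quiescent sample (log2 fold change -0.50 ± 0.10, adjusted p = 0.0241). It is also the strongest peak of the gene, with 40.9% of the summed signal. On recovered reads its change was -0.01 (adjusted p = 0.964) scaled by the median of ratios and -0.25 (adjusted p = 0.117) by total reads, so this call depends on the scaling; the upstream peak stayed called, at 1.24 (adjusted p = 0.00249) and 0.99 (adjusted p = 0.00355). Each call was lost without quiescent sample 2 or 3 or proliferating sample 2 or 3 (adjusted p up to 0.0606 for the upstream peak and 0.101 for the start peak).

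A ratio of reads within 1 gene does not depend on how the samples were scaled to each other. The reads of the upstream Itga4 peak were 0.338, 0.311 and 0.320 of those of the start peak in quiescent samples, against 0.123, 0.136 and 0.144 in proliferating samples. The groups did not overlap (difference 1.27 on the log2 scale; exact permutation test, two-sided, p = 0.1, the smallest that 20 splits of 6 samples can give; adjusted p = 0.114 over the 8 called peaks). These ratios were chosen after the values were seen, and only for peaks already called, each against its gene's strongest other peak. For Itga4 the peak called higher is thus set over the peak called lower. Separation of the groups is therefore largely built in and adds no support to the calls. Of the 8 ratios, the groups overlapped at Itgam alone. The 15 Itga4 peaks together summed to 8787, 7345 and 6963 in quiescent samples, against 8514, 8128 and 7836 in proliferating samples, so the gene's total overlapped between the groups while its upstream and start peaks did not.

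**Figure D2:**
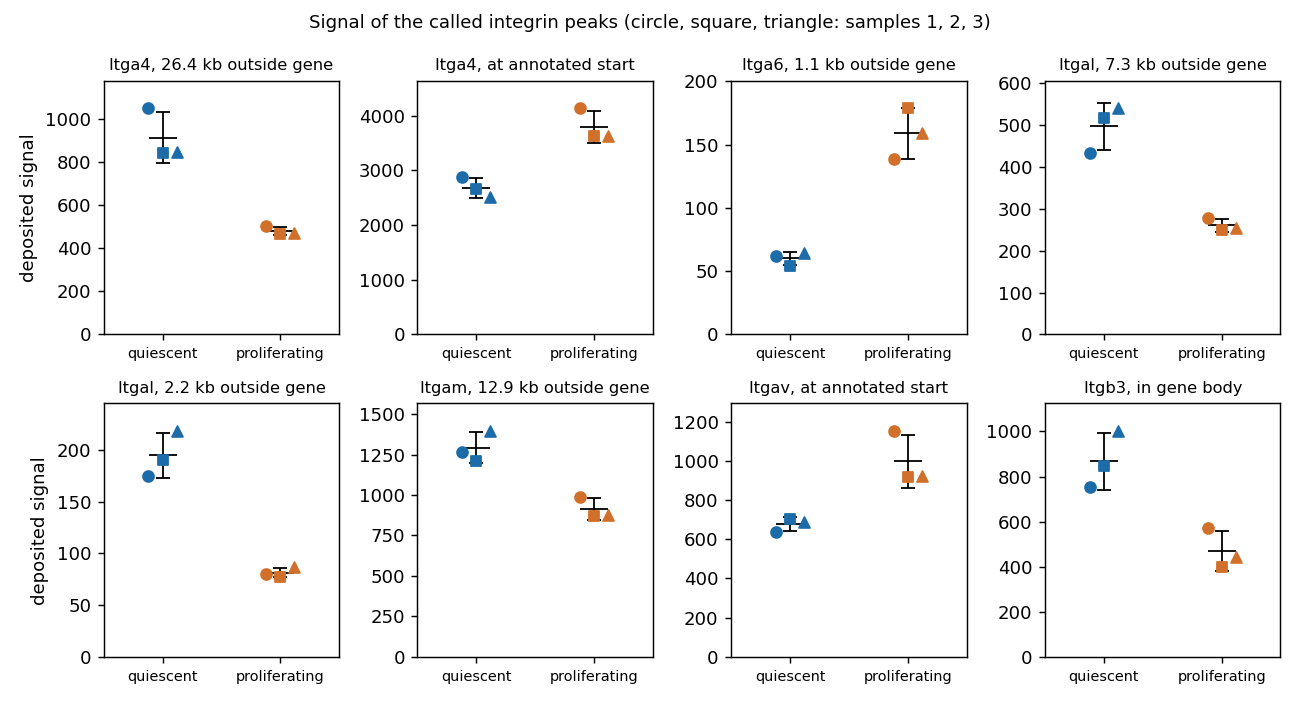
Deposited signal (vertical axes, starting at 0) of each of the 8 called integrin peaks in the 3 quiescent and 3 proliferating samples, with the group mean ± SD as bars and the sample numbers as marker shapes. In each panel the groups are apart, most widely in ratio for the Itga6 peak (54.45 to 63.98 in quiescent against 138.9 to 178.8 in proliferating samples).

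Itga5, the alpha chain of the main fibronectin receptor, had no called peak, and the largest difference in deposited summed signal of the 10 genes with all 6 samples. Its 17 peaks summed to 2799, 2043 and 2180 in quiescent samples, against 2126, 1482 and 1722 in proliferating samples (difference 0.40 on the log2 scale, exact permutation p = 0.2). The groups overlapped, since proliferating sample 1 lay above quiescent sample 2. Its rank depends on the setting: by share of recovered reads its difference was 0.29, against -0.40 for Itgav and 0.37 for Itgb3, and without quiescent sample 1 it was 0.27, against 0.55 for Itgb3. The peak with the lowest p, in the gene body (chr15:103361073-103362197), missed the threshold (log2 fold change 0.84 ± 0.22, adjusted p = 0.0538), but was called with the replicate block (adjusted p = 0.00217) and on recovered reads (1.18, adjusted p = 0.00819, and 0.93, adjusted p = 0.0129). The strongest peak, 8840 bp upstream (chr15:103375631-103378830), had 1083, 852.7 and 864.6 in quiescent samples against 799, 549.8 and 684.9 in proliferating samples (0.47 ± 0.17, adjusted p = 0.135; 0.0184 with the block). The peak over the annotated start was weak, at 35.9 to 41.3 in quiescent and 26.3 to 42.8 in proliferating samples. Log2 summed signals, each centred on the gene's mean over the 6 samples, were also compared by distance. Among 5662 genes, those most like Itga5 in pattern, whatever their level, were Ect2l (0.125), Ap1g1 (0.161) and Nid1 (0.165).

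Itga6, a laminin receptor chain, carried the largest fall. The peak 1114 bp outside one end of the gene (chr2:71785149-71785772) had 62.22, 54.45 and 63.98 in quiescent samples, against 138.9, 178.8 and 158.8 in proliferating samples (log2 fold change -1.38 ± 0.21, adjusted p = 0.0116). The neighbouring peak over that gene end did not differ beyond its spread (148.4, 199.3 and 170.1 in quiescent against 115.3, 224.9 and 213.2 in proliferating samples; -0.05, adjusted p = 0.941). Set against the gene's strongest peak, 41301 bp outside the same end, the reads of the falling peak were 0.0855, 0.0728 and 0.0795 in quiescent samples, against 0.191, 0.352 and 0.328 in proliferating samples. The call was lost without quiescent sample 2 or 3 or proliferating sample 2 or 3 (adjusted p up to 0.0638). With the replicate block, 3 further peaks of Itga6 were called, 2 lower (log2 fold changes -0.91 and -0.63) and 1 higher (0.87).

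Itgal, the alpha chain of LFA-1, had 2 called peaks, one beyond each end of the gene and both higher in quiescent cells. The peak 7326 bp outside one end (chr7:127287534-127288813) had 434.0, 518.1 and 540.4 in quiescent samples, against 277.9, 249.9 and 254.6 in proliferating samples (log2 fold change 0.92 ± 0.16, adjusted p = 0.0150). The peak 2172 bp beyond the other end (chr7:127337309-127338404) had 175.2, 190.3 and 218.7 in quiescent samples, against 80.27, 77.59 and 86.67 in proliferating samples (1.24 ± 0.20, adjusted p = 0.0122). The first of these, and the strongest Itgal peak, also overlapped Gm31897, a gene not annotated as protein-coding. Both groups of samples were apart at both called peaks. The strongest Itgal peak lay between them and overlapped (1153, 1466 and 1603 in quiescent against 966.4, 1472 and 1519 in proliferating samples; 0.11, adjusted p = 0.782). Relative to that peak, the reads of the farther-end peak were 0.128, 0.124 and 0.126 in quiescent samples, against 0.0848, 0.0594 and 0.0677 in proliferating samples. The calls were lost without quiescent sample 2 or 3 or proliferating sample 2, and that of the first peak also without proliferating sample 3 (adjusted p up to 0.0809 and 0.0701). Of the 9 Itgal peaks, 8 had a positive fold change, and their sum was 3289, 3784 and 4006 in quiescent samples, all above 2749, 3187 and 3285 in proliferating samples (difference 0.26, exact permutation p = 0.1). The peak over 1 gene end (chr7:127295775-127297261) had 610.6, 695.6 and 712.0 in quiescent samples, against 596.3, 498.0 and 474.0 in proliferating samples. The groups did not overlap, but it missed the threshold (0.37 ± 0.15, limma adjusted p = 0.168). On recovered reads it was called by the median of ratios (0.68, limma-voom adjusted p = 0.0162) and not by total reads (0.42, adjusted p = 0.0670).

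Itgam, the alpha chain of Mac-1, had 16 of 19 peaks above 0 and a median log2 fold change of 0.45 on the deposited signal, with 1 call. On recovered reads scaled by total reads fewer of its peaks were above 0, with the median of all peaks itself at -0.26. Some of its weak peaks held few reads, down to 3 in proliferating sample 1 at chr7:128067889-128068241. The called peak, 12918 bp upstream (chr7:128048368-128049722), had 1267, 1210 and 1398 in quiescent samples, against 989.2, 868.1 and 875.7 in proliferating samples (0.50 ± 0.12, adjusted p = 0.0427). Its reads relative to the gene's strongest peak overlapped between the groups (0.481, 0.338 and 0.403 in quiescent against 0.403, 0.221 and 0.237 in proliferating samples; exact permutation p = 0.3). This call held only without proliferating sample 1 among the 6 samples left out in turn (adjusted p up to 0.157). The peak over the start was weak, at 111.9, 139.2 and 130.8 in quiescent samples against 63.99, 83.9 and 88.47 in proliferating samples; the groups did not overlap, and it missed the threshold (0.69 ± 0.23, adjusted p = 0.0995; 0.0389 with the block). The family's strongest peak, 34857 bp into Itgam (chr7:128097497-128100329), overlapped between groups (2490, 3534 and 3354 in quiescent against 2473, 4093 and 3976 in proliferating samples; -0.15, adjusted p = 0.707). Sums over the gene overlapped as well (8204, 10350 and 10290 in quiescent against 6970, 9486 and 9615 in proliferating samples). Signal at the myeloid marker genes was also higher in quiescent samples, with 9 of 45 tested peaks called higher and 3 lower (26.7% in either direction, beside 6.72% of all peaks); its part in the Itgam and Itgal results was not tested.

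Itgb2, the beta chain that both Itgal and Itgam pair with, was weakly accessible and had no call among its 5 peaks. Its strongest peak, at a gene end (chr10:77529946-77531623), had 134.1, 151.2 and 153.4 in quiescent samples and 147.2, 151.3 and 141.5 in proliferating samples (log2 fold change -0.01, 95% confidence interval -0.42 to 0.40, adjusted p = 0.988). A weaker body peak had a log2 fold change of 1.17 and missed the threshold (adjusted p = 0.0537; 0.0116 with the block). Per kb of peak, Itgb2 had the lowest signal of the 10 genes (87.81) and Itgam the highest (560).

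Itgav, the vitronectin receptor chain, was, with Itga4, one of 2 genes with a called fall at the start. The Itgav start peak (chr2:83722944-83726355, the strongest of the gene) had 638.0, 705.3 and 687.8 in quiescent samples, against 1155, 916.7 and 924.6 in proliferating samples (-0.55 ± 0.14, adjusted p = 0.0473). Its p was the closest to the threshold of the 8: the call was lost whichever sample was left out (adjusted p 0.0546 to 0.139), and its fold change on recovered reads was -0.21 (adjusted p = 0.380) by the median of ratios and -0.46 (adjusted p = 0.0405) by total reads. The 12 Itgav peaks summed to 2431, 2364 and 2196 in quiescent samples, all below 3267, 2839 and 2747 in proliferating samples (difference -0.34, exact permutation p = 0.1). With the replicate block 2 more Itgav peaks fell (-0.58 and -0.95).

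Itgb3, which pairs with the Itgav chain and, in platelets and megakaryocytes, with Itga2b, had 1 call. The peak, in the gene body (chr11:104638564-104639607), had 755.8, 844.7 and 1004 in quiescent samples, against 569.8, 398.9 and 444.1 in proliferating samples (0.89 ± 0.18, adjusted p = 0.0234), with the groups apart. The call was lost without quiescent sample 2 or 3 or proliferating sample 2 or 3 (adjusted p up to 0.107). The gene's strongest peak did not separate the groups (1222, 1720 and 2116 in quiescent against 1503, 1444 and 1534 in proliferating samples). Nor did the peak over 1 gene end (194.1, 270.3 and 253.2 in quiescent against 120.9, 209.5 and 213.1 in proliferating samples). Of the 10 erythroid and megakaryocyte marker genes, 6 had a peak and 3 had an end peak, all 3 above the median end peak of all genes (Hbb-bt, Pf4 and Gp9, at 1047, 582.8 and 128.0), while Gata1 had no peak. At these marker genes, 0 of 28 tested peaks were called higher and 1 lower in quiescent samples.

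Itgb1, the most widely shared beta chain, had no call on the deposited signal, with or without the replicate block. On recovered reads scaled by total reads 2 of its body peaks were called lower (-0.98, adjusted p = 0.0219, and -1.48, adjusted p = 0.0434), and by the median of ratios neither was (adjusted p = 0.0618 and 0.104). Its start peak (chr8:128684617-128685893), over the last of the windows shown above, had 409.9, 395.9 and 327.9 in quiescent samples and 464.2, 391.1 and 354.9 in proliferating samples (log2 fold change -0.09, 95% confidence interval -0.48 to 0.29). Itgb7, the partner of Itga4 in gut homing, had 3 peaks, and its strongest held 96.3% of their sum. That peak (chr15:102224145-102226075) had 972.7, 1287 and 1177 in quiescent samples against 795.4, 1044 and 1059 in proliferating samples (0.25 ± 0.16, adjusted p = 0.384), and the groups overlapped. On recovered reads it was called by the median of ratios (0.53, adjusted p = 0.0293) and not by total reads (0.25, adjusted p = 0.255). The peak over the annotated Itgb7 start held 3 to 28 reads per sample and was too weak to be tested. A weak body peak of Itgb7 (chr15:102230726-102231257; 41.1 ± 13.1 in quiescent against 15.5 ± 6.43 in proliferating samples, SD, n = 3 each) was called with the replicate block alone (1.38, adjusted p = 0.0266; 0.0972 without it).

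**Figure D3:**
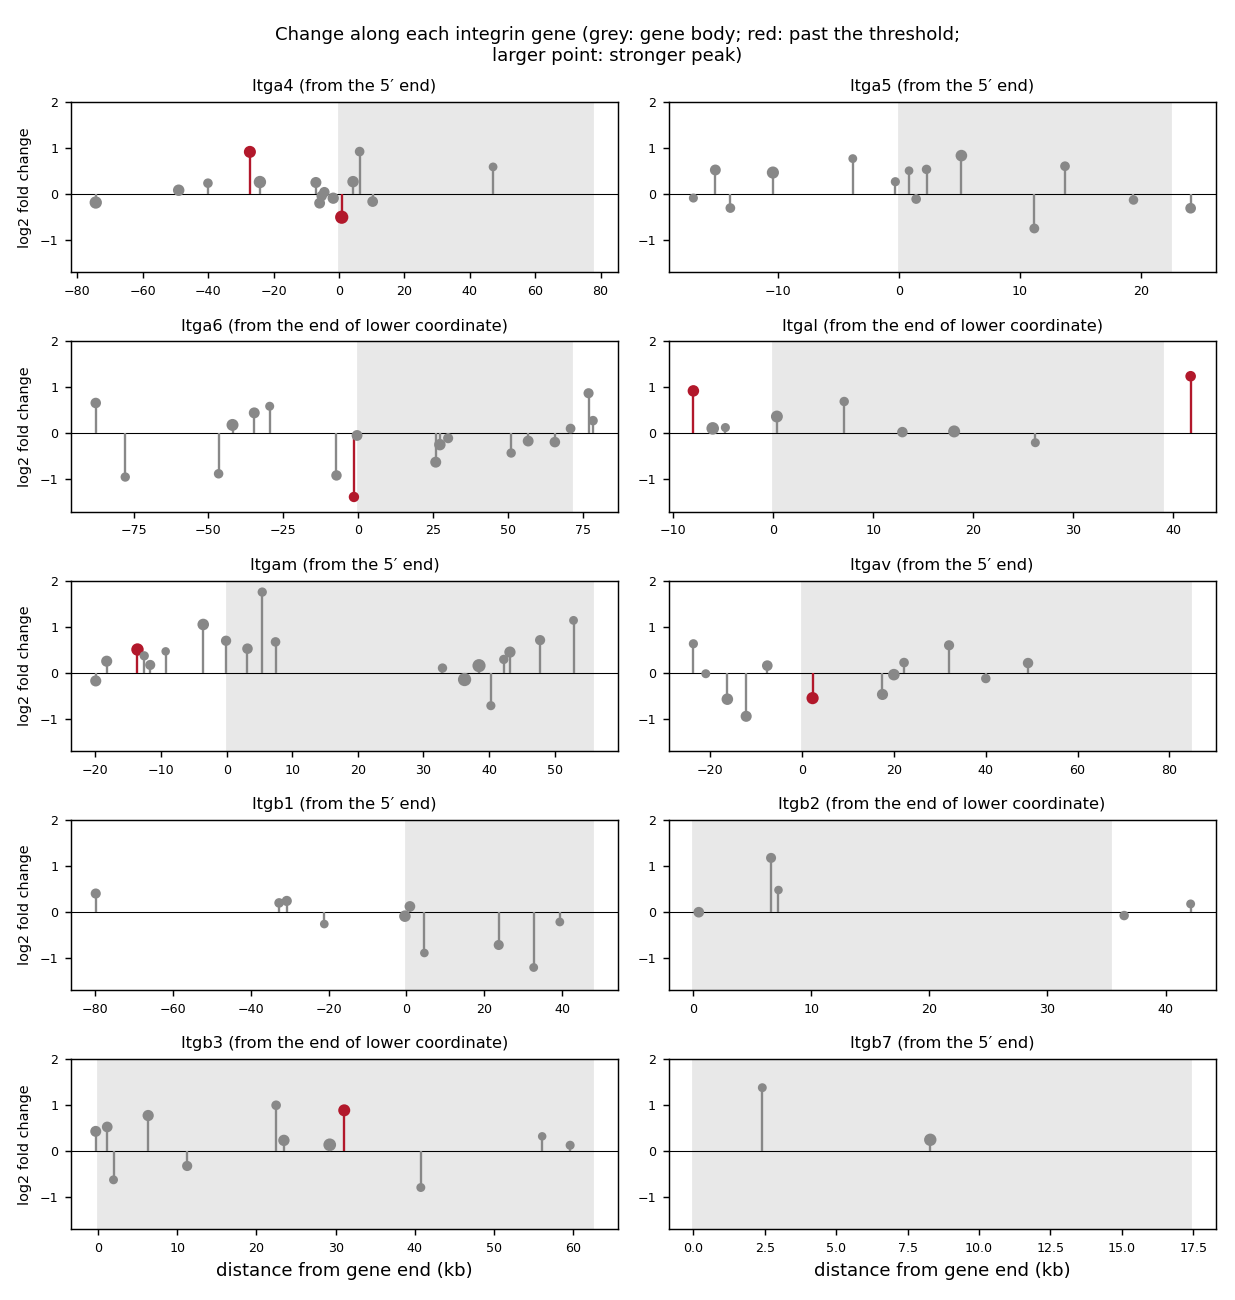
Log2 fold change (quiescent over proliferating, vertical axes) of each tested peak by its distance in kb from the 5′ end of its gene, or from the end of lower coordinate where no start was given (horizontal axes); grey shading is the gene body, red marks called peaks and larger points stronger peaks. The called peaks of Itga4 and Itgav that fell lie at the start. The Itga6 peak that fell and 4 of the 5 that rose lie outside the shaded gene bodies.

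Over the 10 genes, the summed signal separated the groups only at Itgal and Itgav under the deposited scaling; the 8 others overlapped. At Itgal the margin was narrow, with a lowest quiescent sum of 3289 and a highest proliferating sum of 3285. Within the same replicate number, the quiescent sample was higher in all 3 pairs at 6 genes (Itga5, Itgal, Itgam, Itgb2, Itgb3, Itgb7). It was lower in all 3 pairs at 2 (Itga6, Itgav), so by pairs 8 genes rather than 2 differed one way. The share of all genes that do so was counted for neither number, so neither tells integrin genes from other genes. The exact permutation test used on the sums cannot go below p = 0.1 with 3 against 3 samples, and its adjusted p-values over the 10 genes ran from 0.4 to 0.7.

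**Figure D4:**
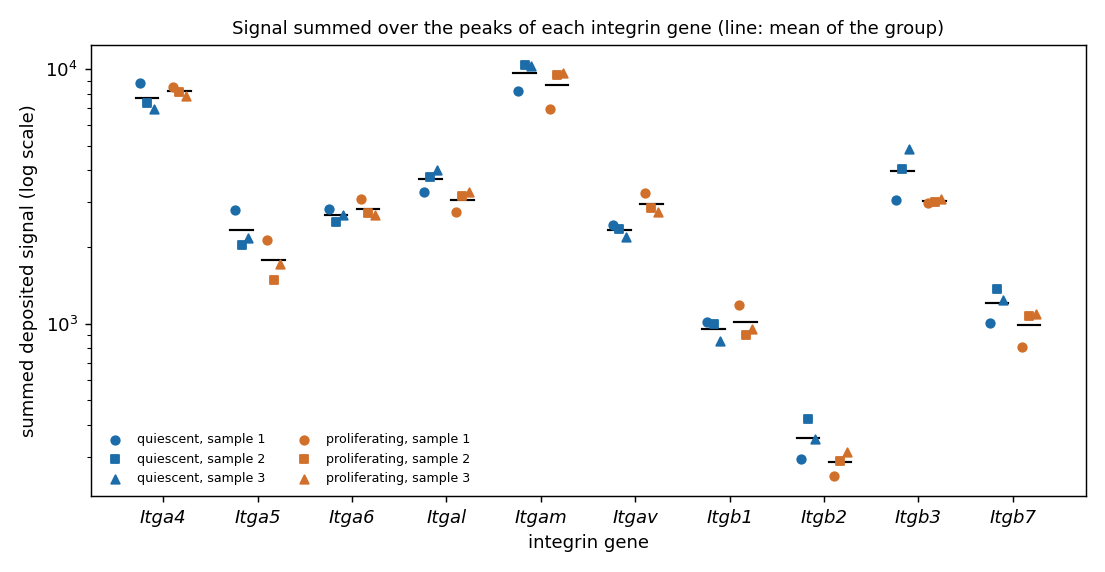
Deposited signal summed over the peaks of each gene (vertical axis, log scale) in the 3 quiescent samples (left in each pair) and the 3 proliferating samples, with group means as lines. Quiescent samples lie wholly above proliferating ones at Itgal and wholly below at Itgav.

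Integrin peaks were also read against lists of related genes, by counts and medians. The 15 other integrin genes with a tested peak had 8 of 137 peaks higher and 5 lower in quiescent cells (9.49%, beside 6.72% of all peaks). Their median log2 fold change was 0.16. These calls lay in few of the 15 genes: 1 had only rises, 2 only falls, 1 both and 11 none. By the limma t statistic, the clearest rises among them were at 2 peaks 49595 and 34428 bp from Itga1, a collagen receptor chain. The first had 463.6 ± 40.6 in quiescent against 155.8 ± 2.40 in proliferating samples (SD, n = 3 each). Its log2 fold change was 1.56 ± 0.16 SE (limma adjusted p = 0.00515). The second had the stronger signal, 813.7 ± 166.2 against 373.3 ± 28.8, and a log2 fold change of 1.10. A peak 11231 bp from Itgad and 1 in Itgb5 fell (-1.48 and -1.25). Of 269 peaks at 27 genes of integrin activation and adhesion adaptors, 12 rose and 11 fell (8.55%, median 0.02). At Apbb1ip, an adaptor that links Rap1 to talin and integrins, 2 peaks rose (1.196 and 0.74), while 1 peak in Rassf5 fell (-0.96), as did 1 peak 97790 bp from Rap1b (-1.71). Of 48 peaks at 10 genes of integrin ligands, 3 rose and 2 fell (10.4%). Rises lay 69744 bp from Fn1, the fibronectin gene (1.65), and in Fn1 itself (1.42). Falls lay in Lama4, a laminin chain (limma adjusted p = 0.0319), and in Thbs1, thrombospondin (-0.73).

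**Figure D5:**
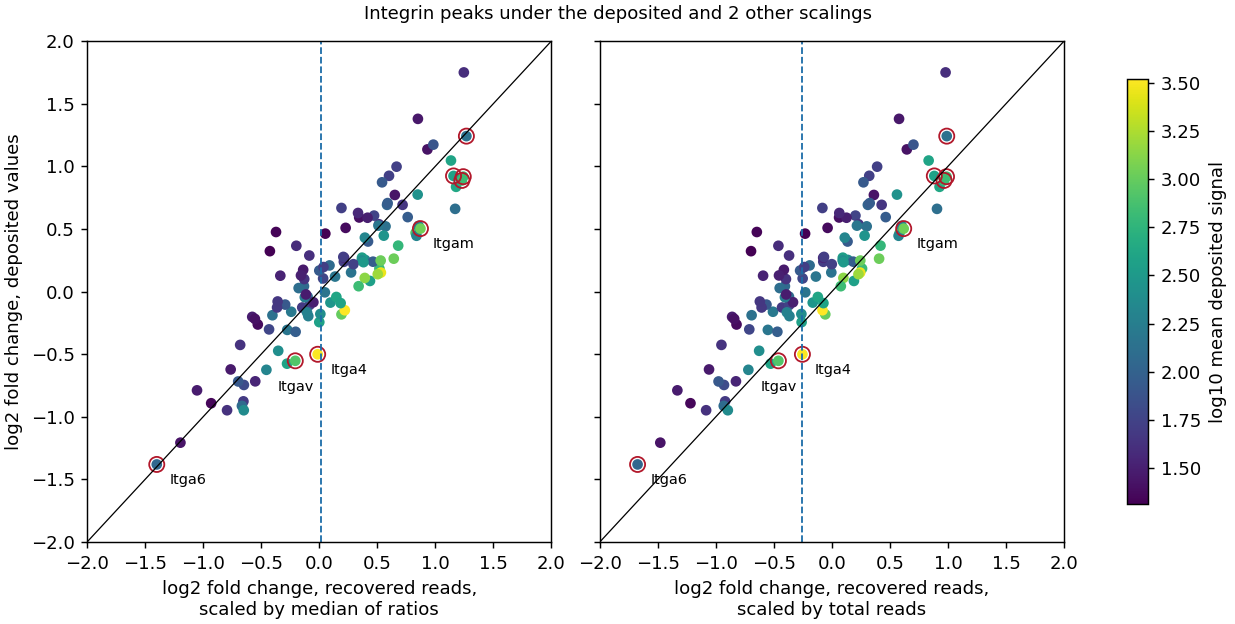
Log2 fold change of the integrin peaks under the deposited scaling (vertical axis) against that on recovered reads (horizontal axes: median of ratios, left; total reads, right); colour gives log10 mean signal, rings mark the 8 called peaks, the solid line is equality and the dashed line the median of all tested peaks. The strong start peaks of Itga4 and Itgav lie right of the line of equality, and the Itga6 peak stays low in both panels.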

How the data were processed

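The authors deposited 1 scaled signal value per sample for each peak of 1 shared list; its scaling method is not stated. Per the submitters' processing notes, Bowtie2, SAMtools and MACS2 were used with build mm10. Widths equal end minus start as deposited. Peaks were assigned with a RefSeq gene table of GRCm38.p6, which gives no exons. Members and gene lists were chosen with earlier results of these data known.

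Peaks with a mean above the lowest 10% were tested with limma 3.58.1 (R 4.3.3; intensity trend) on log2(value + 1), with Benjamini-Hochberg adjustment over all tested peaks; fold changes understate the change of weak peaks. Named for each gene are the peak at its start or end, its strongest peak and its called peaks. Same-numbered samples of the groups deviated together (correlations 0.43, 0.29 and 0.21), but proliferating sample 3 correlated best with quiescent sample 2. The labels do not say what the number shares. The main test and the permutation tests did not use the number. It served only as a block in an alternative fit and for the within-number differences of the gene sums. The reads behind the values were estimated from the step of 1 read: 98.6% to 99.6% of values of 1 to 1000 reads lay within 0.1 of a whole number. Both steps were also run on simulated data. The simulated reads were scaled with the step sizes already estimated, so that run cannot show that these match the authors' scaling. The values simulated for limma held no link between same-numbered samples, so that run does not cover such a link.

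Other pseudocounts, filters, scalings, distances and thresholds, the replicate block and leaving out each sample were tried. Tables and plots were made in Python 3.11.15 (matplotlib 3.10.9, pandas 2.3.3, numpy 2.4.6).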

Additional observations from a re-analysis of the deposited data

How the results depend on the processing

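The 8 called integrin peaks kept the sign of their change in every alternative run. For the Itga4 start peak that sign means little on recovered reads by the median of ratios, where the change was -0.01 ± 0.14 SE. The number of integrin peaks called, not always the same peaks, moved to 22 with the replicate block and 5 without the intensity trend. It was 3 with gene body peaks alone, 17 at an adjusted p of 0.1, and 13 on recovered reads with either scaling. Without the trend, 4 of the 8 were still called: the upstream Itga4 peak, the Itga6 peak and both Itgal peaks. Leaving out 1 sample gave 0 to 14. Called peaks at the 3 lists of related genes numbered 41, against 111 with the block, 16 without the trend, 79 on recovered reads by the median of ratios, 84 by total reads and 0 to 55 with 1 sample left out. The genes whose summed signal separates the groups numbered 2, against 4 with gene body peaks alone, 4 by share of recovered reads, 8 when all 3 within-number differences had the same sign (replicate block), and 2 to 8 with 1 sample left out. The total-reads scaling, the share of reads and leaving out peaks over non-coding genes were chosen after seeing the data. The Itgav call was also lost with no filter on low values (adjusted p = 0.05001) and with median-of-ratios scaling of the deposited values (0.0557). The cause was not tested. Depth limits weak peaks most in proliferating sample 1, with a median of 27 reads per peak, against 179 in proliferating sample 3.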

Other observations

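The samples of number 1 were often extreme together over the whole table, and integrin peaks lay near that share. The quiescent and proliferating samples of number 1 were together the 2 highest or the 2 lowest of the 6 samples at 28.4% of the 116 tested integrin peaks, beside 25.1% of all tested peaks. For number 2 the shares were 4.31% and 8.77%, and for number 3 they were 7.76% and 6.82%. At a peak 87126 bp from Itga6, its nearest protein-coding gene (chr2:71698734-71699760), the signal was 328, 47 and 101 in quiescent samples 1, 2 and 3, against 190, 25 and 81 in proliferating samples 1, 2 and 3.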
